A study of Mus musculus with 2 samples.

Results

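Mir221 and Mir222, the genes of the microRNAs (miRNAs) miR-221 and miR-222, were 2 of the 2202 annotated miRNA genes counted in small RNA of the mouse cerebral cortex. They were found by their symbols in GENCODE M21, and both had reads in every library. They were chosen by their ratio between the replicates, known from earlier results, which differs between them. Their levels, their ratios and the gap between these ratios are therefore given as a description, with no test.

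The tissue was left cerebral cortex of B6CASTF1/J mice, a first-generation hybrid of C57BL/6J and CAST/EiJ, aged 18 to 20 months. RNA under 30 nt was sequenced in 1 group of 2 libraries, numbered as biological replicates 1 and 2, with no treatment, mutant allele or young control. The labels list a separate tissue sample for each library but the same donor record, so it cannot be told apart how much of the difference between them is technical. Sex is given as male in one label and female in another, and it was not used, although both hairpins lie on the X chromosome.

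miRNAs are cut from hairpin-shaped precursors, and bases 2 to 8 of the mature strand, the seed, select the messenger RNAs they repress. miR-221 and miR-222 are known to be processed from a common primary transcript and to repress Cdkn1b, an inhibitor of the cell cycle, and Kit, a receptor tyrosine kinase. They are best known from endothelium and vascular smooth muscle, and they are raised in gliomas.

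The mature sequences are shown because the members share a seed but differ at many other positions. They are from RefSeq (GRCm38.p6), where both members were matched, and the seed is in capitals.
miR-221-3p: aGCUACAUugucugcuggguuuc
miR-222-3p: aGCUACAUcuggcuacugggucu
miR-221-5p: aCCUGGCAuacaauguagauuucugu
The 3p strands, from the 3′ side of each hairpin, are identical over the first 8 bases counted from the 5′ end and differ at 12 of 23 positions, so 47.8% of positions match without gaps. The first differences are U9C, G10U and U11G, written as the base of miR-221-3p, the position and the base of miR-222-3p. Farther on, both 3p strands hold the stretch cugggu, but shifted against each other. The comparison without gaps therefore counts part of this stretch as differences. One other mature mouse miRNA of 1738 in the table carries this seed, miR-1928, a shorter strand shown for comparison.
miR-1928: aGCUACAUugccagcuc
Mir1928 on chromosome 1 had no read in either library, so all counted reads from genes with this seed lay at Mir221 and Mir222. A count of 0 (limit of 3 reads) allows up to 1.26 CPM (reads of a gene per 1000000 sense miRNA reads in the same library) for replicate 1 and 0.676 CPM for replicate 2. The hairpin of Mir1928 has stretches of 20 bases in common with 24 other annotated genes, and reads that map to several places stand under no gene. The seed of miR-221-5p was found in no mature miRNA of another gene.

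The hairpins are shown with their listed mature strands in capitals.
Mir221: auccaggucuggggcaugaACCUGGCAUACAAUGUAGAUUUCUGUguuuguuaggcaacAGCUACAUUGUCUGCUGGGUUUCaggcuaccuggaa
Mir222: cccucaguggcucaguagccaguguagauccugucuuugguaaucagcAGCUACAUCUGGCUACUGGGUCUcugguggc
Mir221 (ENSMUSG00000065422.1) lies at chrX:19146294-19146388 and Mir222 (ENSMUSG00000065471.1) at chrX:19146893-19146971, both on the minus strand (mm10). On that strand Mir222 comes first and 504 bases separate the hairpins. No other gene of GENCODE M21 overlaps either hairpin, and the nearest is the noncoding Gm14636 on the same strand, 10010 bases from Mir222. The Mir221 hairpin has 95 bases and a GC content of 47.4%, and the Mir222 hairpin has 79 bases and a GC content of 54.4%. Their predicted folding energies are close, at -42.8 kcal/mol for Mir221 and -40.7 kcal/mol for Mir222.

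Reads of the members can be told apart from each other and from other annotated genes. The longest stretch shared by the hairpins has 9 bases, and it holds the common start of the 3p strands. Neither hairpin has a stretch of 20 bases in common with another annotated transcript. None of the 3 mature strands occurs in another RefSeq hairpin, even with 2 mismatches. No read lay on the opposite strand of either gene, and the counts of both strands together equal those of the gene's strand. The counts are per hairpin, so the 5p and 3p strands were not separated.

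Sense miRNA reads, those on the strand of a miRNA gene, numbered 2381663 in replicate 1 and 4436398 in replicate 2. They were 29.6% and 36.2% of all reads. Replicate 1 had more unmapped reads (30.8% against 14.6%) and fewer multimapping reads (35.6% against 44.8%). Some markers of the labelled tissue were present. The 11 neuron loci together reached 80939 ± 13326 CPM (SD, n = 2), most of it from Mir132. However, the 3 loci of miR-124, a miRNA of nearly all neurons, had at most 4 reads each. Those 3 loci have 20-base stretches in other annotated genes, so these counts do not measure the level of miR-124. Mir9-1, Mir9-2 and Mir9-3 of the neuron list were low as well, at means of 15.3, 1.61 and 50.8 CPM. Their hairpins also have such stretches, so the level of miR-9 was not measured either. The liver marker Mir122 stood at 67.2 ± 12.4 CPM and the 5 muscle loci summed to 16.7 ± 3.45 CPM. Mir1a-1, Mir133a-1 and Mir133a-2 of the muscle list were at 0 reads, with the same limit on their counts. These hairpins have 20-base stretches in other annotated genes, so reads that map to several places would not be counted there. Their counts therefore do not measure the levels of miR-1 and miR-133.

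Mir221 was the more abundant member in both libraries. It had 21562 reads in replicate 1 and 21411 in replicate 2. On the CPM scale this was 9053 in replicate 1 (95% exact Poisson interval 8933 to 9175) and 4826 in replicate 2 (4762 to 4891). Replicate 1 lay above replicate 2, with nearly equal read numbers in libraries of unequal size. The mean was 6940 ± 2989 CPM (SD, n = 2).

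Mir222 had 8597 reads in replicate 1 and 4629 in replicate 2. Its level was 3610 CPM in replicate 1 (95% exact Poisson interval 3534 to 3687) and 1043 CPM in replicate 2 (1014 to 1074). It was again higher in replicate 1, and there even the read number was higher, in the smaller library. The mean was 2327 ± 1815 CPM (SD, n = 2), so the SD was 78.0% of the mean, against 43.1% for Mir221. PCR copies are not independent molecules, so these intervals hold counting error alone, and the spread between libraries was far wider. In bulk tissue, fewer cells of a type and less RNA per cell cannot be told apart.

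**Figure D1:**
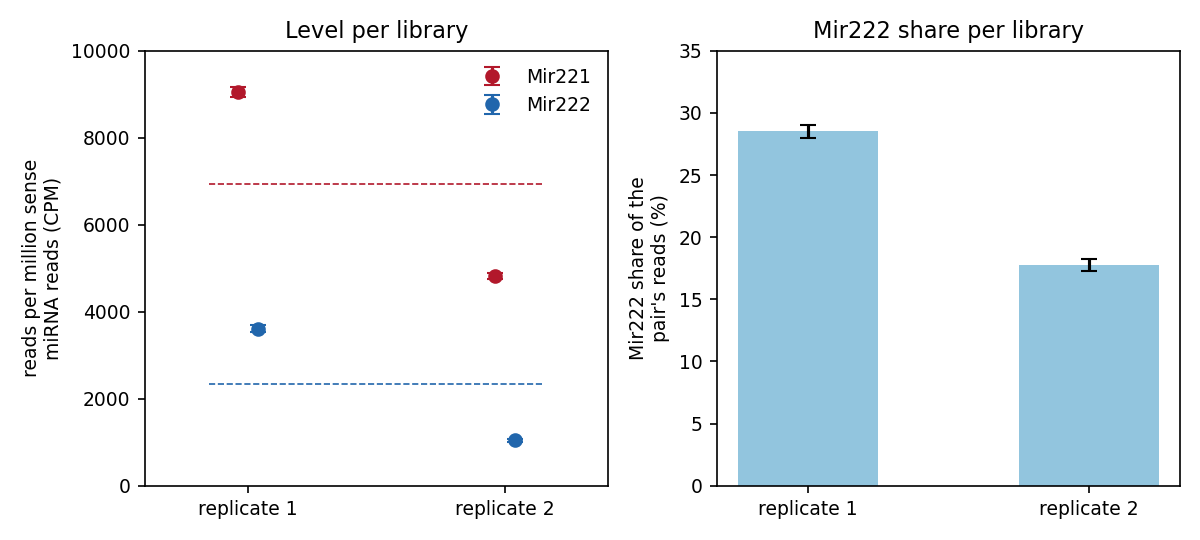
Left, CPM of Mir221 and Mir222 in each library with 95% exact Poisson intervals and the mean of both libraries as a dashed line; right, the share of the pair's reads at Mir222 with 95% exact binomial intervals. Both genes are higher in replicate 1, and the Mir222 share is 28.5% in replicate 1 and 17.8% in replicate 2.

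Within each library Mir221 exceeded Mir222. Mir222 held 28.5% of the 30159 reads of the pair in replicate 1 (95% exact binomial interval 28.0 to 29.0) and 17.8% of 26040 reads in replicate 2 (17.3 to 18.2). Reads per hairpin were 2.51-fold higher at Mir221 in replicate 1 and 4.63-fold higher in replicate 2. Per base of hairpin the folds were 2.09 and 3.85, so the order of the members was the same on that scale. The mean log2 ratio of Mir222 to Mir221, in reads per hairpin, was -1.77 ± 0.62 (SD, n = 2).

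The pair together made up 1.27% of sense miRNA reads in replicate 1 and 0.587% in replicate 2, a summed level of 9266 ± 4804 CPM (SD, n = 2). Among all 2202 genes, ranked by CPM per hairpin, Mir221 was 24th in replicate 1 and 41st in replicate 2. Mir222 was 46th and 92nd. Ranked by CPM per base of hairpin, Mir221 was 26th and 44th and Mir222 was 46th and 91st. By mean CPM per hairpin, Mir221 stood at rank 29, between Mir30d at 7673 ± 1411 CPM (SD, n = 2) and Mir149 at 6714 ± 2272 CPM. These neighbours did not differ from Mir221 beyond the spread of the libraries, and the ranges of 24 other genes overlapped that of Mir221. Mir222 stood at rank 59, between Mir338, an oligodendrocyte miRNA, at 2428 ± 919 CPM and Mir369 at 2324 ± 519 CPM. Its range overlapped those of 60 other genes, so its place in the order was loosely set.

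The ratio between the libraries was larger for Mir222 than for Mir221. On the log2(CPM + 1) scale with TMM scaling, which sets the libraries level on the bulk of genes, Mir221 was higher in replicate 1 by 0.94 ± 0.01 (counting SE), a 1.91-fold ratio. Mir222 was higher in replicate 1 by 1.82 ± 0.03, a 3.52-fold ratio. The log2 ratios differed by 0.88 ± 0.03 (counting SE), so the ratio of Mir222 to Mir221 was 1.84-fold higher in replicate 1. This gap does not depend on the scaling of the libraries beyond the pseudocount, because both members are divided by the same total. The ratio of Mir221 itself does: scaled to all reads of each library, unmapped ones included, it was 0.62, and that of Mir222 was 1.497. Scaled to all mapped reads of each library, the ratios were 0.92 for Mir221 and 1.80 for Mir222.

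The ratios of the members were set beside those of the 472 genes with at least 10 reads in total. The median log2 ratio over these genes was -0.07, with an interquartile range from -0.43 to 0.41. A ratio as far from 0 as that of Mir221, in either direction, was found in 80 other genes (17.0%), and one as far as that of Mir222 in 10 (2.12%). Among the 95 genes with a mean of at least 1000 CPM, the counts were 11 other genes for Mir221 and 2 for Mir222. The common coefficient of variation that edgeR calls biological, estimated over 367 genes of these same libraries, was 0.343. Over the 472 genes it was 0.351, the value used in the exact test of edgeR given below. Both libraries list the same donor record, so how much of this spread is technical cannot be told.

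**Figure D2:**
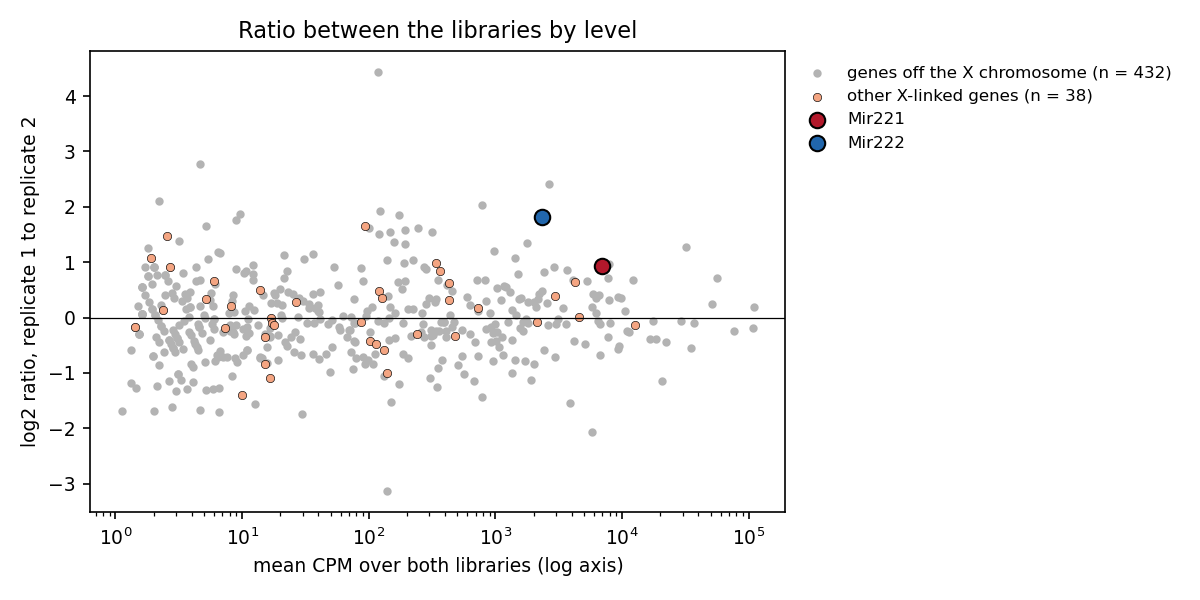
Log2 ratio of replicate 1 to replicate 2 (vertical axis) against mean CPM (log axis) for the 472 genes with at least 10 reads in total; the members are large points and the other X-linked genes are outlined. Mir221 lies at 0.94 and Mir222 at 1.82, above the interquartile range of all genes, which ends at 0.41.

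The genes with the nearest ratio were sought among those with a mean of at least 100 CPM, by the smallest difference in log2 ratio over the 2 libraries. For Mir221 they were Mir143 (log2 ratio 0.96), a smooth muscle miRNA, Mirlet7f-1 (0.91) and Mir107 (0.91). For Mir222 they were Mir376c (1.85), Mir135b (1.93) and Mir34c (1.62). Likeness over 2 libraries is 1 number per gene and describes only these libraries. Stretches of 20 bases from Mirlet7f-1, Mir107 and Mir376c also occur in other annotated genes, so their own counts are uncertain.

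The gap between Mir221 and Mir222 lay within the range of gaps in other close pairs. All adjacent hairpins on 1 strand with starts within 1 kb and at least 10 reads in each library gave 57 pairs. The gap of 0.88 between Mir221 and Mir222 was the 15th largest, so 14 of the 56 other pairs (25%) had a gap at least as large, and the median of the others was 0.64. In 7 of these 14 pairs a hairpin has a 20-base stretch in another annotated gene, so its count is uncertain, and without all such pairs 7 of 29 others (24.1%) had a gap at least as large. With a minimum of 1000 reads in each library, 3 of 14 other pairs did. Both members of this pair were higher in replicate 1, as in 16 of the 57 pairs, while 19 pairs were higher in replicate 2 throughout and 22 held ratios of opposite sign. In no other pair were both log2 ratios at or above the 0.94 of Mir221.

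The largest gap belonged to Mir296 (log2 ratio -1.53) and Mir298 (0.68), neighbours in an imprinted region of chromosome 2. Next came Mir501 (0.62) and Mir362 (-1.39) on the X chromosome, with only 12 reads of Mir362 in replicate 1. Mir99b (-2.06) and Mirlet7e (-0.10), of one cluster on chromosome 17, differed by 1.97 with at least 5197 reads each. Mir200a (0.20) and Mir200b (-1.73), of epithelial cells, rested on as few as 10 reads. Mir411 (0.71) and Mir299a (-0.73) lie in the imprinted cluster of chromosome 12, and reads of Mir411 are uncertain because 1 other gene shares 20 bases with it. Levels within the pair of Mir221 and Mir222 were comparatively close: mean CPM per hairpin differed by 1.58 on the log2 scale, and 40 of the 56 other pairs lay farther apart, with a median of 2.998.

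**Figure D3:**
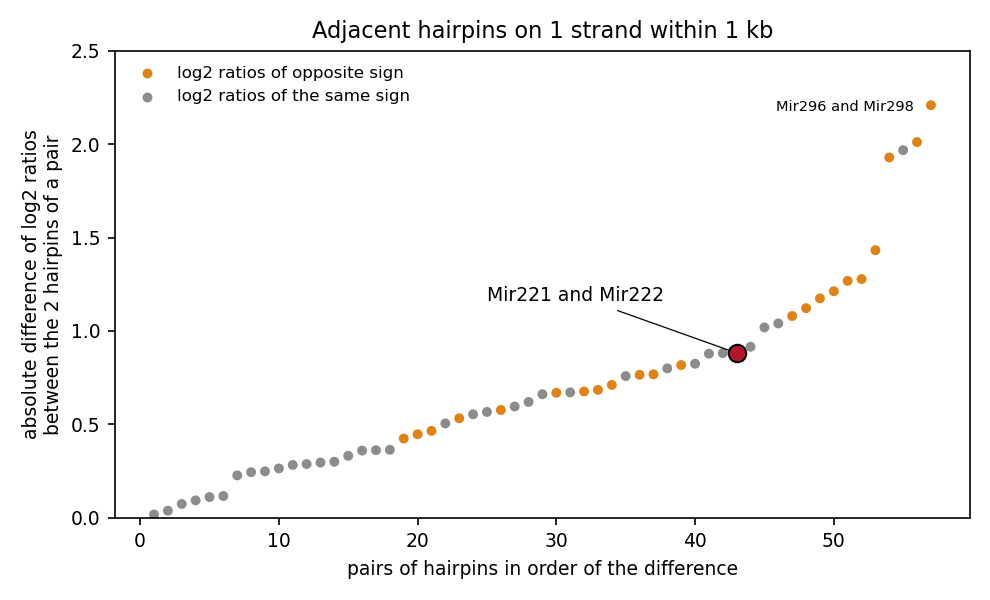
Absolute difference between the log2 ratios (replicate 1 to replicate 2) of adjacent hairpins, for 57 pairs in rising order, with pairs of opposite sign in orange and of the same sign in grey. Mir221 and Mir222, at 0.88, lie below 14 pairs, and the largest gap is 2.21.

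Other X-linked miRNA genes had ratios in both directions. Of 140 such genes, 38 had at least 10 reads in total. A two-sided exact binomial test between the libraries, which allows for counting noise alone, passed for 22 of these 38, 11 higher in each replicate. It passed for 52.1% of all 472 genes tested (Benjamini-Hochberg adjustment, threshold 0.05), 24.6% higher in replicate 1 and 27.5% higher in replicate 2, so the X-linked share was near the background. The exact test of edgeR, which allows for the spread between these same libraries, passed for 2 of the 472 genes (0.424%). Neither was among these 38 genes or on a list here. The difference tested also enters that spread, so few genes can pass, and no conclusion is drawn from this test. The median log2 ratio of the 38 X-linked genes was 0.07 against -0.07 over all genes tested. The most abundant of them were Mir652 at 12573 ± 1014 CPM (SD, n = 2), Mir361 at 4576 ± 26.7 CPM, Mir98 at 4233 ± 1253 CPM, Mirlet7f-2 at 2931 ± 520 CPM and Mir676 at 2138 ± 105 CPM. Their log2 ratios were -0.14, 0.02, 0.64, 0.39 and -0.07, each below that of Mir221, and all of these genes but Mir361 passed the test. With RLE size factors Mir676 did not pass and Mir361 did, with log2 ratios of 0.00279 and 0.09. Mirlet7f-2 has 20-base stretches in common with 3 other annotated genes, so its count is uncertain. The summed level of the 140 genes was 31254 CPM in replicate 1 against 29870 CPM in replicate 2.

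Of the 9 listed loci of vessels, where miR-221 and miR-222 are best known, 4 were tested and 3 passed the binomial test, beside the 52.1% of all genes. No difference between vessel cell types was tested, and the list holds few tested loci. Mir143 and Mir145a, of smooth muscle cells and pericytes, were higher in replicate 1. Mir143 stood at 10428 CPM in replicate 1 against 5447 CPM in replicate 2, so its log2 ratio was 0.96 ± 0.01 (counting SE). Mir145a stood at 427 against 272 CPM, with a log2 ratio of 0.68 ± 0.06. Mir126a, the endothelial miRNA, stood at 17007 and 18138 CPM, with a log2 ratio of -0.07 ± 0.01 that passed with TMM but turned to 0.01 and did not pass with RLE size factors. Mir214 did not pass, at 73.5 and 80.5 CPM. The list summed to 27937 CPM in replicate 1 and 23938 CPM in replicate 2 with a median log2 ratio of 0.31, and Mir126b, Mir199a-1 and Mir199a-2 were at 0 reads. The hairpins of Mir199a-1 and Mir199a-2 have 20-base stretches in other annotated genes, so reads that map to several places would not be counted there. The part of mural or endothelial cells in the ratios of Mir221 and Mir222 was not tested.

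The injury and inflammation list was drawn up for activated glia and immune cells, but not all its loci are of these cells alone. More of its loci passed the binomial test higher in replicate 1 than higher in replicate 2. All 10 listed loci were tested and 6 passed, near the 52.1% of all genes. Of these 6, 5 were higher in replicate 1 and Mir22 in replicate 2. Over all genes tested, 24.6% passed higher in replicate 1 and 27.5% higher in replicate 2. With RLE size factors this order over all genes turned, with 128 of 472 higher in replicate 1 and 113 higher in replicate 2. The split of the list stayed at 5 and 1. Among the 5 were Mir146 (log2 ratio 0.11) and Mir146b (1.66, with 20 and 9 reads). Each shares a 20-base stretch with 1 other annotated gene, so their counts are uncertain. The median log2 ratio of the list was 0.31. Mir21a, induced by injury, stood at 4450 CPM in replicate 1 against 849 CPM in replicate 2, and its log2 ratio of 2.42 ± 0.03 (counting SE) was above that of Mir222. Of the 3 myeloid loci, Mir142 passed, at 150 and 49.4 CPM, a log2 ratio of 1.61 ± 0.12. Mir155, at 42.0 and 39.7 CPM (log2 ratio 0.11), and Mir223, at 16.4 and 11.5 CPM (0.50), did not pass, nor did the lymphocyte miRNA Mir150 (-0.03). Mir132, which is also on the neuron list, had a log2 ratio of 0.71, Mir22 -0.56 and Mir34a -0.03, the last not past the test and at 0.04 with RLE. The list summed to 87257 CPM in replicate 1 and 61173 CPM in replicate 2, most of it Mir132. In the neuron list the 8 tested loci had a median log2 ratio of -0.21, and 5 passed, 4 of them higher in replicate 2. Of these 8 loci 7 have 20-base stretches in other annotated genes, among them all 4 higher in replicate 2, so their counts are uncertain. The part of glia, immune cells or neurons in the ratios of the members was not tested.

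**Figure D4:**
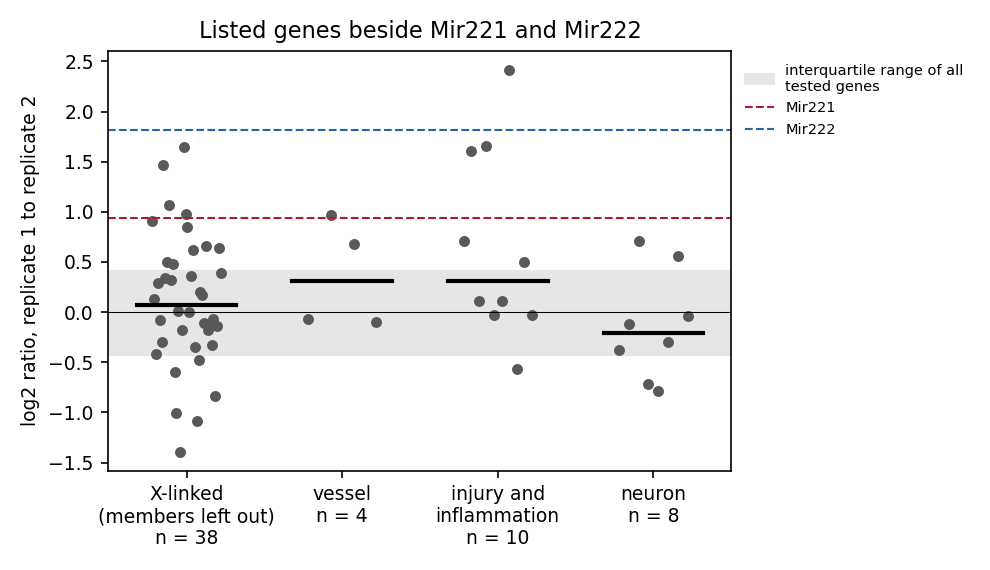
Log2 ratio of replicate 1 to replicate 2 for each tested gene of 4 lists, with list medians as black bars, the interquartile range of all 472 tested genes in grey, and Mir221 (0.94) and Mir222 (1.82) as dashed lines. No X-linked, vessel or neuron gene reaches the line of Mir222, and in the injury and inflammation list Mir21a lies above it.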

How the data were processed

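The authors deposited for each library a table of raw read counts by miRNA gene on mm10 with GENCODE M21 per the file headers of the notes beside them. Aligner, trimming and counting settings: not given in the sources used here. Counts on the strand of the gene were used, and the 4 summary lines stayed out of totals. All 2202 identifiers matched GENCODE M21. CPM used sense miRNA reads as the total. Log2 ratios used TMM (edgeR 4.0.16, R 4.3.3, genes with at least 10 reads in total) and a pseudocount of 1 CPM. The binomial test and intervals used scipy 1.17.1. With 1 group there is no quasi-likelihood test between groups, and the binomial test compares libraries, not conditions. On simulated data of 472 genes with counting noise alone it called 1.47% of 272 unchanged genes and 80.0% of 50 genes changed 2-fold. Folding used ViennaRNA 2.7.2.

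The members, lists, tests and the rule for named genes were chosen with earlier results of these data known. Named are the members, genes sharing their seed and the 5 most abundant other X-linked genes. From the vessel list and from the injury and inflammation list, up to 3 genes each are named. The 3 nearest ratios, the 5 pairs with the largest gaps and neighbours in level are named too. Mir21a, Mir142, Mir146, Mir146b, Mir155, Mir223, Mir150, Mir214, Mir122 and loci at 0 or few reads were named after their values were seen. So were the miR-9 loci. Alternatives covered scaling, strands, pseudocounts, read minimums, pair distance and each library alone.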

Additional observations from a re-analysis of the deposited data

How the results depend on the processing

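The direction of the members' ratios, higher in replicate 1, was the same under all alternatives run. The log2 ratio of Mir221 was 0.94 with TMM over genes with at least 10 reads, 0.91 with library totals, 1.01 with RLE size factors and 0.90 with both strands counted. With scalings added after the data were seen, it was 0.84 with TMM over all genes and 0.62 with all reads as the total. With all mapped reads as the total, also added later, it was 0.92. RLE moved the median log2 ratio of all tested genes up by 0.07. Among named genes it turned the sign for Mir126a, Mir34a, Mir150, Mir676 and Mir9-3. For Mir222 (1.82), RLE gave 1.89, TMM over all genes 1.72, all reads 1.497 and all mapped reads 1.80. Each library alone gave 4826 to 9053 CPM for Mir221, 1043 to 3610 CPM for Mir222 and -2.21 to -1.33 for the log2 ratio of Mir222 to Mir221. The number of other close pairs with at least the gap of Mir221 and Mir222 was 14 of 56, 27 of 84 within 10 kb, 3 of 14 with 1000 reads in each library and 7 of 29 without hairpins that share 20-base stretches, the last 2 settings also added later. These settings change how many pairs enter. The binomial test called 246 genes. The exact test of edgeR, which adds a spread estimated from these same libraries, called 2. No paired analysis was possible because there is only 1 group. With 2 libraries the SD itself is poorly known, whatever the depth.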

Other observations

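Other genes of the X chromosome, chosen after their values were seen, had these levels. Mir421 stood at 464 CPM in replicate 1 against 262 CPM in replicate 2, its log2 ratio being 0.85 ± 0.06 (counting SE). Mir374b, the next hairpin on the same strand, had 141 and 45.3 CPM, a log2 ratio of 1.65 ± 0.13, the highest among X-linked genes after Mir222. Both genes of this pair were higher in replicate 1, with a gap of 0.80 between their log2 ratios. The 5 other adjacent X-linked pairs within 1 kb, leaving out Mir221 and Mir222, had gaps from 0.25 to 2.01. A stretch of 20 bases of Mir421 also occurs in another annotated gene, so its reads are uncertain. Mir384, a brain miRNA, had 445 and 229 CPM, a log2 ratio of 0.98 ± 0.06. Mir351 had 90.3 and 186 CPM, a log2 ratio of -1.01 ± 0.11, and Mir322, of the same cluster but not the next hairpin, had 471 and 383 CPM and a log2 ratio of 0.32 ± 0.06. Mir223, a myeloid miRNA on the X chromosome, did not pass the test, with 39 and 51 reads.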
